A study of Drosophila melanogaster with 2 samples.

Results

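The 269 small nucleolar RNA (snoRNA) genes that Ensembl annotates on the Drosophila melanogaster chromosome arms, and the 95 genes whose spans hold them, were set against binding of tagged mod(mdg4). All genes with the biotype snoRNA on the 6 arms were taken, from 18164 genes there without transposable elements. A member counted as bound when a peak summit lay within 500 bp of its start, and a host gene when a summit lay within 500 bp of any of its annotated start sites. A host is a gene on the same strand whose span holds the whole snoRNA gene.

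The chromatin came from whole larvae of the third instar at the wandering stage, both sexes pooled, of 1 transgenic line with GFP fused to the C terminus of mod(mdg4), an insulator and chromatin protein with a BTB domain. It was precipitated with an antibody against GFP, so the peaks are those of the tagged protein, summed over all tissues of the animal. The 2 biological replicates, numbered 3 and 4, form the only group, and the control library enters only through the authors' peak signals. The list that passed the authors' reproducibility (IDR) threshold holds 6294 peaks, of which 6273 lie on the arms and 21 on the mitochondrial genome. Since the lists give peak positions and signals without read counts, the depth of sequencing is unknown.

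snoRNAs guide the chemical modification of other RNAs by base pairing. C/D snoRNAs, named for their C and D boxes, direct 2'-O-methylation through the methyltransferase fibrillarin, and H/ACA snoRNAs direct pseudouridylation through the enzyme that the Nop60B gene encodes in flies. Most targets are ribosomal RNAs, while the scaRNAs act on spliceosomal RNAs in Cajal bodies. In flies most snoRNAs have no promoter of their own: they are cut from introns of a host transcript, which may encode a ribosomal protein or other protein, or may be a noncoding U snoRNA host gene (Uhg) whose exons have no known product.

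By symbol, 114 members are H/ACA guides, 91 are C/D guides, 18 carry a U or snR name, 16 are scaRNAs and 30 have another name. Their lengths run between 46 and 316 bp with a median of 134 bp. The members lie in an intron of a host in 243 cases and outside host introns in 26. Of these 26, 12 lie between genes, 10 overlap a gene on the opposite strand only, and 4 lie in a host span but overlap an exon of the host. Members per host ran from 1, in 56 hosts, to 17 in Arpc2, a subunit of the actin-nucleating Arp2/3 complex.

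The first 3 sequences are C/D members of the noncoding host Uhg2, with the C box (TGATGA) and the D box (CTGA) in capitals. Me18S-A1576 and U14:30Eb each had a summit within 500 bp of their start, whereas U14:30Ea, a near copy of U14:30Eb, had none. They are shown on their own strand, from RefSeq sequence of the dm6 assembly, at chr2L:9894795-9894907, chr2L:9893946-9894026 and chr2L:9894205-9894285 on the minus strand.
snoRNA:Me18S-A1576: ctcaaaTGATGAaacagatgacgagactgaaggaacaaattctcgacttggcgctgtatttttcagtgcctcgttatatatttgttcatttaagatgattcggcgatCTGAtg
snoRNA:U14:30Eb: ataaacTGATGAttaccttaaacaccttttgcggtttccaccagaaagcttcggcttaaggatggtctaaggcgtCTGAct
snoRNA:U14:30Ea: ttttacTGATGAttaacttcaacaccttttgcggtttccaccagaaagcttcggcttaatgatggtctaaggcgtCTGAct

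The next 3 are H/ACA members, with the terminal ACA box in capitals. Psi18S-920 is the only member of RpL10Ab and had a summit near its start. Psi18S-525a and Psi18S-525b are 2 of 10 related copies in Arpc2, none of which had one. They lie on the plus strand at chr3L:11822984-11823124, chr2L:20418348-20418481 and chr2L:20418670-20418804.
snoRNA:Psi18S-920: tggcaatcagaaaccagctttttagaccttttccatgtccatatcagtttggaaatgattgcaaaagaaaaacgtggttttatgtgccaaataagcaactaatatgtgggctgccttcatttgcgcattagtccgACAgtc
snoRNA:Psi18S-525a: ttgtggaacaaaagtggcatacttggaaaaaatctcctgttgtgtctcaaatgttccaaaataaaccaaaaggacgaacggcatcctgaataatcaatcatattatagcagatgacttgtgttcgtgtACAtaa
snoRNA:Psi18S-525b: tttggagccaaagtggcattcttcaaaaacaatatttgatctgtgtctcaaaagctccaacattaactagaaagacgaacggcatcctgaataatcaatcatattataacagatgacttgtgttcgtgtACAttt

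mod(mdg4)-GFP summits were common at host starts and uncommon at the snoRNA genes themselves. Of the 95 hosts, 39 (41.1%) had a summit within 500 bp of a start, against 2577 of 13861 protein-coding genes that are not hosts (18.6%) and 282 of 3251 ncRNA genes that are not hosts (8.67%). Of the 269 snoRNA genes, 22 (8.18%) had a summit within 500 bp of their own start, against 2701 of 17895 other genes at their outermost start (15.1%). Other small RNA genes stood above the snoRNA genes at the same window, with 8 of 32 snRNA genes (25%) and 109 of 290 tRNA genes (37.6%).

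Each replicate list gave the same order when its strongest 6294 peaks were used. Hosts had a start summit in 39 cases (41.1%) in replicate 3 and 46 (48.4%) in replicate 4, against 19.5% and 21.2% of the other protein-coding genes. The gap between hosts and other genes was larger than the difference between replicates in either set. snoRNA genes had a summit in 23 cases (8.55%) in replicate 3 and 29 (10.8%) in replicate 4, against 15.8% and 17.2% of all other genes. Genes are not replicates of a condition and 1 peak can serve several, so these shares are given as descriptions of 1 set of peaks, with no test.

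**Figure D1:**
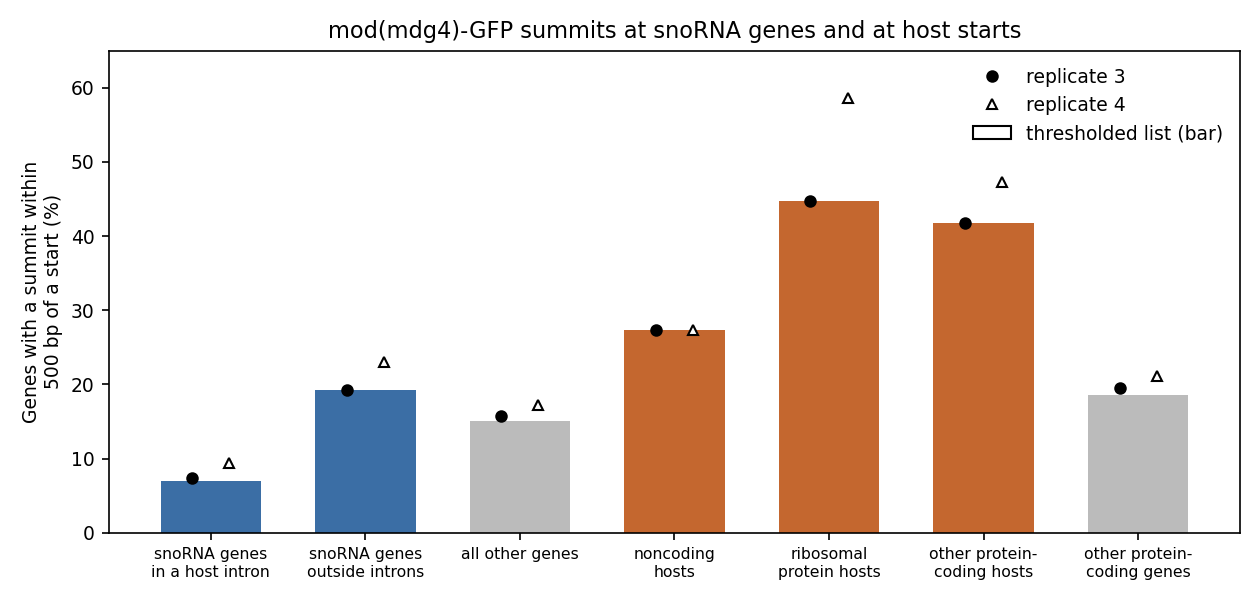
Percent of genes with a summit within 500 bp of a start, for snoRNA genes in a host intron, snoRNA genes outside host introns, all other genes at their outermost start, 3 classes of host and other protein-coding genes at any start. Bars show the thresholded list, circles replicate 3 and triangles replicate 4 (the strongest 6294 peaks of each). Ribosomal protein hosts and other protein-coding hosts stand at 44.8% and 41.8%, above other protein-coding genes at 18.6%, in both replicates.

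Hosts were divided by what they encode. The 29 ribosomal protein hosts had a start summit in 13 cases (44.8%), and in 13 and 17 cases in replicates 3 and 4. The 55 hosts that encode other proteins had one in 23 cases (41.8%), and in 23 and 26 cases in replicates 3 and 4. Of the 11 noncoding hosts, 3 had a start summit (27.3%), in the thresholded list and in both replicates. Ribosomal protein genes that hold no snoRNA had one in 24 of 64 cases (37.5%), and in 27 and 28 cases in replicates 3 and 4. Ribosomal protein genes with and without a snoRNA thus differed by 7.33 percentage points in the thresholded list, by 2.64 in replicate 3 and by 14.9 in replicate 4.

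A gene with more start sites offers more windows, so protein-coding hosts were also compared with other protein-coding genes at equal numbers of annotated start sites. With 1 start site, 16 of 40 hosts (40%) had a summit, against 12.9% of 10206 other genes. With 2, the shares lay close, at 7 of 23 hosts (30.4%) and 27.3% of other genes. With 3 or 4, 9 of 16 hosts (56.2%) had a summit, against 48.5% of other genes, and with 5 or more, 4 of 5 hosts (80%), against 65.4%. At the outermost start alone, 31 of 84 protein-coding hosts (36.9%) had a summit, against 16.3% of other protein-coding genes.

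**Figure D2:**
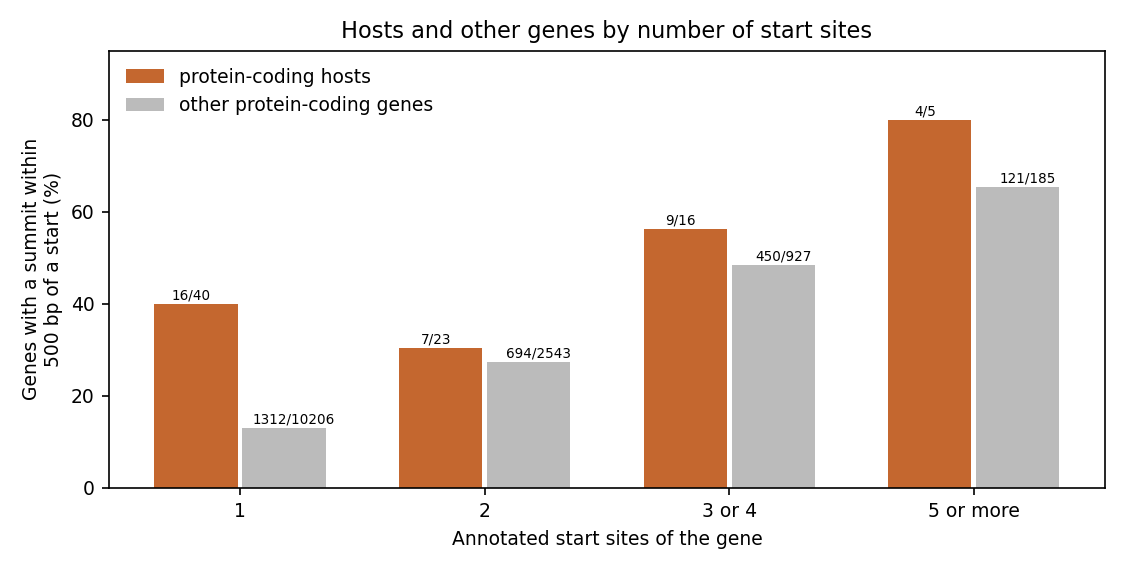
Percent of protein-coding hosts (left bar of each pair) and of other protein-coding genes (right bar) with a summit within 500 bp of any start, by the number of annotated start sites. Numbers above the bars are genes with a summit over all genes. The widest gap, 40% of hosts against 12.9% of other genes, is at genes with a single start site.

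The 39 hosts account for 49 pairs of a host and a peak and 48 distinct peaks, since RpS6 and the pseudogene CR33222 share 1 start peak. Of the 49 pairs, 41 had the summit upstream of the start (83.7%), against 85.0% for other protein-coding genes, and the median distance was 118 bp, against 151 bp. For neighbours, here and below, only starts of protein-coding and ncRNA genes were searched. Among these, a start of the host was the nearest gene start in 37 of the 49. The pseudogene CR33222, whose start is 11 bp from the shared summit, was therefore not counted as nearest there. At 20 of the 48 distinct peaks a start of another such gene also lay within 500 bp, so these peaks cannot be assigned to the host alone. Starts of other kinds of gene could add to the 20. At 40 of the 48, the nearest snoRNA gene started over 500 bp away. Of the 48, 35 overlapped a peak among the strongest 6294 of both replicates, and 47 overlapped a peak of any rank in both. The summit was within 500 bp of the outermost start in 34 of the 39 hosts. From the replicate lists alone, 32 hosts had a start summit among the strongest 6294 of both, of which 2 had no start peak in the pooled list, so the count of 39 may miss hosts where the pooled list used here holds no peak.

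The signals below are the authors' pooled enrichment over control, and the ranks are those of the overlapping peaks in each replicate list (1 is strongest). Over the 48 host start peaks the median signal was 208.1, with a range between 113.5 and 1093.5. It was 199.1 over all 2637 peaks at protein-coding starts and 185.6 over all arm peaks. By class, the median was 223.9 for other protein-coding hosts (32 pairs of host and peak), 180 for ribosomal protein hosts (14) and 201.8 for noncoding hosts (3).

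The strongest peak stood at Stt3A, the catalytic subunit of the oligosaccharyltransferase, with a signal of 1093.5 pooled, 638 in replicate 3 (rank 82) and 446.6 in replicate 4 (rank 90). It lies at chrX:21054177-21054479, 373 bp upstream of the Stt3A start and 236 bp from the start of bves, the nearer gene. tou, a chromatin remodelling factor gene, followed at 920.2 pooled, 447.8 in replicate 3 (rank 212) and 471.7 in replicate 4 (rank 76), with a summit in a coding exon. It counted through an internal start site of tou, 491 bp away and just within the window, and was far from the outermost start, at 33901 bp. Arf1, a small GTPase of the Golgi, had 2 start peaks with pooled signals of 534 and 372.4. drn reached 554.8 pooled and CG1142 reached 458. Msp300, the fly nesprin, stood at 364, eEF1alpha1, a translation elongation factor, at 335 and 248.2, and hts, the fly adducin, at 327.1 and 145.4. All of these but the hts peak at 145.4 were among the strongest 6294 of both replicates. At the Arf1 peak of 534 and the hts peak of 327.1, the nearest gene start belongs to a neighbour, CG11109 and CalpA. drn had another start peak at 113.5, with rank 28919 in replicate 3 and rank 2332 in replicate 4.

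Other protein-coding hosts with weaker peaks run between 119 and 296.9. They include the BTB transcription factor gene lola, with 3 start peaks at 296.9, 220.9 and 173.7, and anchor at 290.9. The poly(A)-binding protein gene pAbp stood at 263.4, CG3902 at 249.9, the nuclease gene Tudor-SN at 240.4 and CG43051 at 225.3. Dys, which encodes dystrophin, had 3 start peaks, of which the strongest stood at 222.4, and mask stood at 211.7. Hrb98DE, an hnRNP protein gene, stood at 187.7 and Fib, which encodes fibrillarin itself, at 155.6. The Mediator subunit gene skd stood at 152.9, the translation factor gene kra at 140.4 and 138.4, gcl at 138.1, Arpc2 at 130.2 and the decapping factor gene Edc3 at 119. The replicates were unequal at kra, where the stronger peak had rank 21752 in replicate 3 and rank 2000 in replicate 4. They were also unequal at Arpc2 (ranks 3879 and 9401) and Edc3 (ranks 4488 and 12904). The nearest gene start belongs to a neighbour at Arpc2 (CG10949), Edc3 (Nedd4), anchor (Vps60), mask (Spase22-23), gcl (CG14767) and Fib (CG3085).

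**Figure D3:**
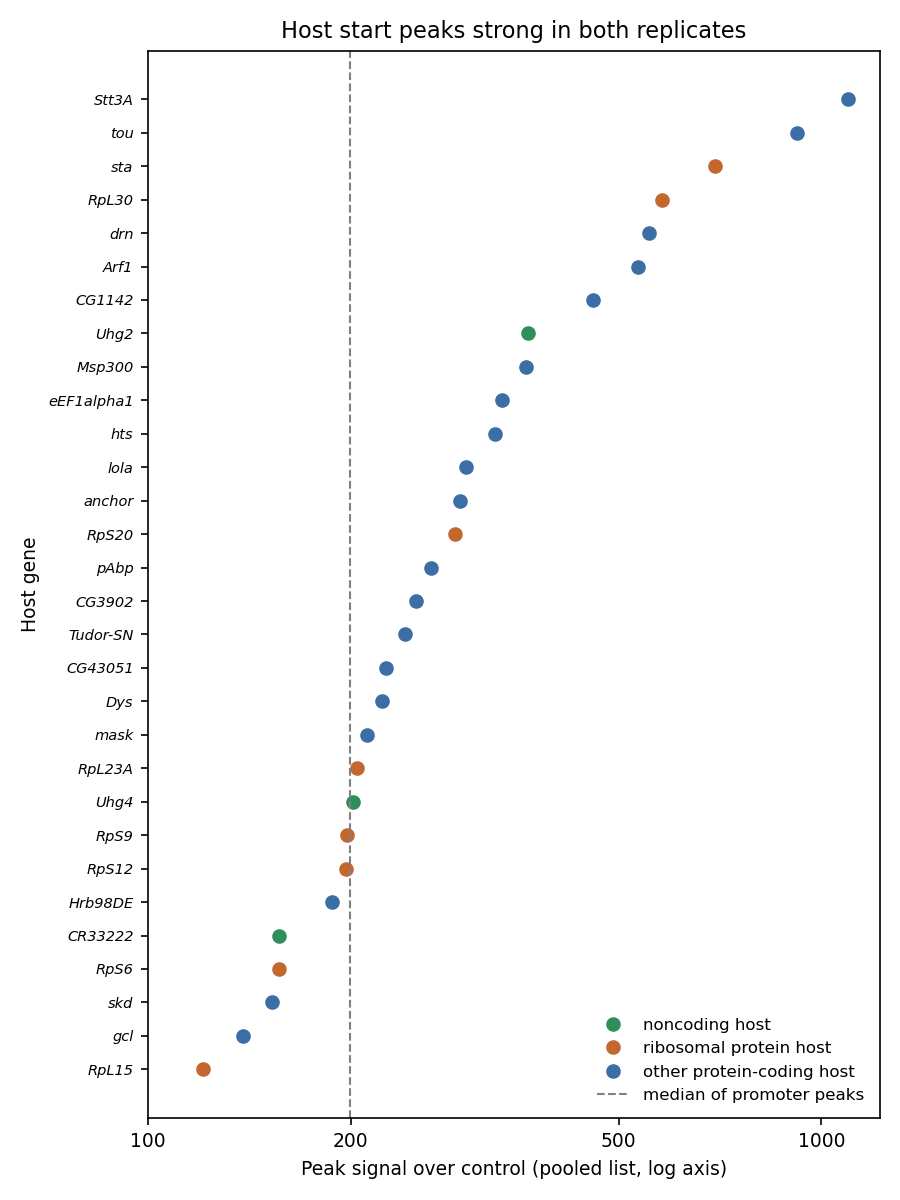
Signal of the strongest start peak of each of the 30 hosts that have one among the strongest 6294 of both replicates (log axis, pooled enrichment over control), coloured by class, with the median of all peaks at protein-coding starts as a dashed line. The hosts span 120.6 to 1093.5, with Stt3A, tou and sta at the top and 3 noncoding hosts between 156.6 and 366.

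Among the ribosomal protein hosts, sta was strongest, with a signal of 696 pooled, 418.3 in replicate 3 (rank 244) and 280.2 in replicate 4 (rank 280). sta encodes the small subunit protein that is the fly laminin receptor homologue. RpL30 followed with 579.9 pooled, 295.4 in replicate 3 (rank 524) and 280.1 in replicate 4 (rank 282). RpS20 had 285.2 pooled, 170.6 in replicate 3 (rank 1579) and 126.9 in replicate 4 (rank 1514). All 3 were among the strongest 6294 peaks of both replicates.

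The other 10 ribosomal protein hosts had weaker peaks, with pooled signals between 120.6 and 213.3. RpL22 stood at 213.3, with rank 2950 in replicate 3 and no overlapping peak in replicate 4. The gene start nearest to the RpL22 peak is that of lncRNA:CR44966. RpL23A stood at 204.5, RpS9 at 197.2 and RpS12 at 196.7. RpS7 stood at 163.4, RpL5 at 156.7, RpS6 at 156.6 and RpL10Ab at 151.2. RpL15 was the lowest, at 120.6. RpS9 had a weaker peak at 134.7 as well, but both of its pooled peaks overlap the same peak in each replicate list.

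Windows of 60 bp to each side of the summit are shown for 5 host start peaks that lie upstream of the host start, on the strand of the host, from RefSeq sequence of dm6. Capitals mark 5 motifs: the DRE (TATCGATA), the BEAF-32 element CGATA or TATCG, which each DRE holds 2 times, the CTCF core AGGNGGC, the GAGA element GAGAG, and TATAAA. The RpS12 and RpL10Ab windows each hold 1 DRE, the Uhg2 window holds CGATA and TATAAA, and the RpL30 and RpS20 windows hold none of the 5.
RpS12 summit, chr3L:13023233-13023353: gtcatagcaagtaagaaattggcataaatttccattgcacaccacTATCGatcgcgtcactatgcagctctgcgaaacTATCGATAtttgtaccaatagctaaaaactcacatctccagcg
RpL10Ab summit, chr3L:11822758-11822878: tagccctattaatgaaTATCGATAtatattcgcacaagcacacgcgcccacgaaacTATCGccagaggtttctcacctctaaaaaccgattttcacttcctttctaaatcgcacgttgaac
Uhg2 summit, chr2L:9895140-9895260: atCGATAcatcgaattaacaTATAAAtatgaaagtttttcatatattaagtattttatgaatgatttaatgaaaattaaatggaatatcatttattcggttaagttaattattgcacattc
RpL30 summit, chr2L:19009320-19009440: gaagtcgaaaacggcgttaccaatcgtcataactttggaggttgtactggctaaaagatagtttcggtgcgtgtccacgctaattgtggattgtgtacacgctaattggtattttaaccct
RpS20 summit, chr3R:20822005-20822125: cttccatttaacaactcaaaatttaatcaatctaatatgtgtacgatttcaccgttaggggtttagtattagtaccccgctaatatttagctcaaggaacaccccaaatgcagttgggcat

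Within 100 bp of the summit, peaks at host starts held these motifs at shares near those of other promoter peaks. A DRE, the element bound by DREF, was present on either strand at 10.4% of the 48 host start peaks, against 6.53% of 2590 other promoter peaks. CGATA was present at 37.5%, against 36.5%, and GAGAG at 33.3%, against 30.9%. TATAAA was present at 35.4%, against 34.5%. AGGNGGC was present at 1 of the 48 (2.08%), against 6.60%.

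Around the outermost start site of each gene, 100 bp to each side, hosts differed more from other genes in some of these motifs, with or without a summit. A DRE was present at 15.4% of the 39 hosts with a summit and 21.4% of the 56 hosts without one, against 7.76% of 13861 other protein-coding genes. CGATA was present at 46.2% and 55.4% of these hosts, against 39.3% of the other genes. Ribosomal protein genes had these elements whether or not they hold a snoRNA: a DRE at 27.6% of the 29 hosts and 29.7% of the 64 that are not hosts, and CGATA at 58.6% and 65.6%. GAGAG was near the other genes, at 20.5% of hosts with a summit and 19.6% without one, against 22.5%. TATAAA on the sense strand was lower, at 15.4% and 14.3% of these hosts, against 21.0%. AGGNGGC was present at 10.3% and 5.36%, against 6.08%. CTTTT at the position of the TCT initiator, which ribosomal protein genes of flies use, was present on the sense strand at 7.69% of hosts with a summit and 14.3% of hosts without one, against 1.89% of other genes. By class it was present at 27.3% of noncoding hosts and 17.2% of ribosomal protein hosts, with 12.5% of ribosomal protein genes that hold no snoRNA. These motif matches are letters in a window and say nothing of which factor was bound.

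Hosts that hold many snoRNA genes did not stand out by their start peaks. Of the 39 hosts with 2 or more members, 18 had a start summit (46.2%), and of the 56 hosts with 1 member, 21 did (37.5%). The 11 hosts with 7 or more members hold 118 of the 269. Of these, Arpc2 (17 members), kra (8), Hrb98DE (7), RpS7 (7) and Uhg4 (7) had a start summit. The other 6 had none: Uhg1 (16 members), dom (15), RpS5a (14), Uhg5 (11), Sf3b3 (9) and Nop60B (7). dom encodes an ATPase of the Tip60 chromatin complex and Sf3b3 a splicing factor of the U2 snRNP. At the Uhg1 start the best pooled peak had rank 18469, and at the RpS5a starts rank 10321, both below the threshold. dom, Uhg5, Sf3b3 and Nop60B had no start peak of any rank in the pooled or the replicate lists.

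Among the noncoding hosts, Uhg2 had the strongest peak, with a signal of 366 pooled, 254.3 in replicate 3 (rank 716) and 96.9 in replicate 4 (rank 2531). Its summit lies between Uhg2 and the divergent neighbour Bka, 197 bp from the Uhg2 start and 87 bp from the Bka start. Uhg4 had 201.8 pooled, 115.2 in replicate 3 (rank 3134) and 109.8 in replicate 4 (rank 1966), with the summit 43 bp inside the gene, in an exon. The peak shared by CR33222 and RpS6 had 156.6 pooled, 93.3 in replicate 3 (rank 4318) and 61.2 in replicate 4 (rank 5252). Uhg3, Uhg5 and Uhg7 had no start peak in any list, and Uhg1 and Uhg8 had only peaks below the threshold.

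The snoRNA genes inside introns were then compared with those outside. A summit lay within 500 bp of the start in 17 of 243 intronic members (7.00%) and in 5 of 26 members outside host introns (19.2%), a difference of -12.2 percentage points. In replicate 3 the counts were 18 (7.41%) and 5 (19.2%), and in replicate 4 they were 23 (9.47%) and 6 (23.1%), for differences of -11.8 and -13.6. The group outside host introns is small, and its 5 cases rest on 4 peaks. The 5 cases are 4 of the 12 members between genes and 1 of the 4 that overlap a host exon, with none of the 10 that overlap only a gene on the opposite strand. The median distance to the nearest summit was 3560 bp for intronic members and 4057 bp for members outside, so the order of the groups by this measure was the opposite.

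The share of intronic members with a summit was highest near the host start, although only 8 of the 17 lay there. Of the 33 intronic members that start within 500 bp of a host start, 8 had a summit (24.2%). Beyond that and up to 1000 bp it was 1 of 50 (2%), from there to 2000 bp 2 of 74 (2.70%), and beyond 2000 bp 6 of 86 (6.98%). Over 1000 bp from every host start, 8 of 160 had one (5%). Replicate 3 gave 9 and replicate 4 gave 10 such members. Of the bases in introns of hosts more than 1000 bp from a host start, 4.94% lay within 500 bp of a summit, close to the share of these members. In introns of protein-coding genes, over bases more than 1000 bp from a protein-coding start, the share was 3.28%. These shares of bases leave out different sets of starts, so they are not directly comparable.

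**Figure D4:**
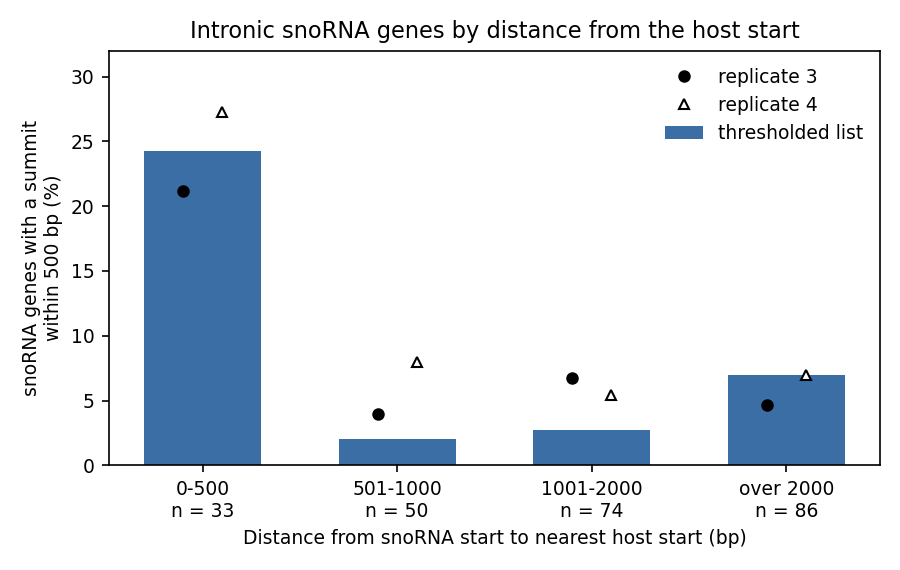
Percent of intronic snoRNA genes with a summit within 500 bp of their start, by distance to the nearest start of the host in bp. Bars show the thresholded list, circles replicate 3 and triangles replicate 4. The share is 24.2% within 500 bp of a host start and between 2% and 6.98% in the farther bins.

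The state of the host start separated the intronic members further. A host start summit was present for 98 of the 243 intronic members (40.3%). Among these 98, 14 had a summit near their own start (14.3%), against 3 of the 145 whose host had none (2.07%). Since both windows can hold the same summit, this is partly 1 peak counted in 2 ways. Indeed 8 of the 17 intronic members had that summit at a host start. These are Me18S-A1576 in Uhg2, Psi28S-2949 and Or-aca5 in Uhg4, Me28S-A1322 in eEF1alpha1, Psi18S-920 in RpL10Ab, Me28S-A774b in RpS12, Me18S-G1358c in RpL15 and Or-aca2 in RpS6. Their peaks are the host start peaks of those genes given above, with signals between 120.6 and 366, and the weaker peak of eEF1alpha1, at 248.2, is the one 43 bp from Me28S-A1322.

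The other 9 intronic members with a summit share 6 peaks that were at no start of the host. snoRNA:lola-a, -b, -c and -d lie side by side in a lola intron and share 1 peak of signal 135.4, with 78.6 in replicate 3 (rank 5605) and 56.8 in replicate 4 (rank 5843). Its summit is 7 bp from the start of lola-b and inside that gene, the only snoRNA gene that held a summit among the 269. snoRNA:hts-a, in an intron of hts, had the strongest of the 6, with 281.5 pooled, 190.1 in replicate 3 (rank 1288) and 106 in replicate 4 (rank 2093), 241 bp from its start.

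snoRNA:Or-CD4, in Uhg5, lay 407 bp from a summit of signal 217.2 that stood beyond the 3' end of the host, with ranks 2388 and 3130 in replicates 3 and 4. snoRNA:U14:30Eb lay 346 bp from a summit of signal 156, which stood 234 bp from the start of the neighbouring gene for the mitochondrial DNA helicase and outside Uhg2, with ranks 4730 and 4675. snoRNA:Me18S-A28a, in Uhg1, lay 390 bp from a summit of signal 133.4 beyond the end of Uhg1, with ranks 7735 and 5273. snoRNA:Me18S-C1968, in the secreted protein gene Swim, lay 29 bp from a summit of signal 127.7, with ranks 6375 and 5633. At 3 of these 6 peaks, then, the summit was outside the host altogether.

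Members outside host introns held the strongest peak near any snoRNA gene. snoRNA:2R:9445205 and snoRNA:2R:9445410 lie next to each other between genes and share a peak at chr2R:13558063-13558337, with a signal of 1092.7 pooled, 620.2 in replicate 3 (rank 87) and 481.3 in replicate 4 (rank 74). The summit is upstream of both, by 339 and 134 bp, and 356 bp from the start of the protein-coding gene CG13334. Another member of this cluster, the H/ACA guide snoRNA:Psi28S-1153, starts 503 bp from the same summit and so falls just outside the window. The nearest members beyond it are Psi18S-1295 in RpS20 at 545 bp and Me18S-C419 in RpL15 at 593 bp, while the farthest inside are Or-CD4 at 407 bp and Me18S-A28a at 390 bp.

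snoRNA:185 had the next strongest, with 583.7 pooled, 368.2 in replicate 3 (rank 322) and 220.6 in replicate 4 (rank 464). Its summit is 222 bp upstream and 13298 bp from the nearest start of a protein-coding or ncRNA gene, the only kinds searched. scaRNA:MeU1:95C-A24 lay 381 bp from a summit of signal 124, with 43.5 in replicate 3 (rank 12587) and 86 in replicate 4 (rank 3081), so the replicates were unequal there. snoRNA:CG43051-a overlaps an exon of CG43051 and took its summit from the start peak of that gene, at 225.3 pooled. The 3 genes for U3, the C/D snoRNA needed to cleave the ribosomal RNA precursor, are transcribed from promoters of their own and lie between genes here. In the thresholded list, snoRNA:U3:54Aa, U3:54Ab and U3:9B had their nearest summits at 2816, 4703 and 14959 bp. Each replicate list held weaker peaks within 500 bp of their starts, all outside the strongest peaks used for counting. The best ranks, in the same order, were 12073, 7663 and 19144 in replicate 3. They were 19955, 13089 and 7378 in replicate 4. At U3:54Aa and U3:54Ab, only 52.5% and 52.2% of the surrounding 32-base words occur once on the arms. The sources used here do not say how the authors placed reads that match more than 1 site.

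**Figure D5:**
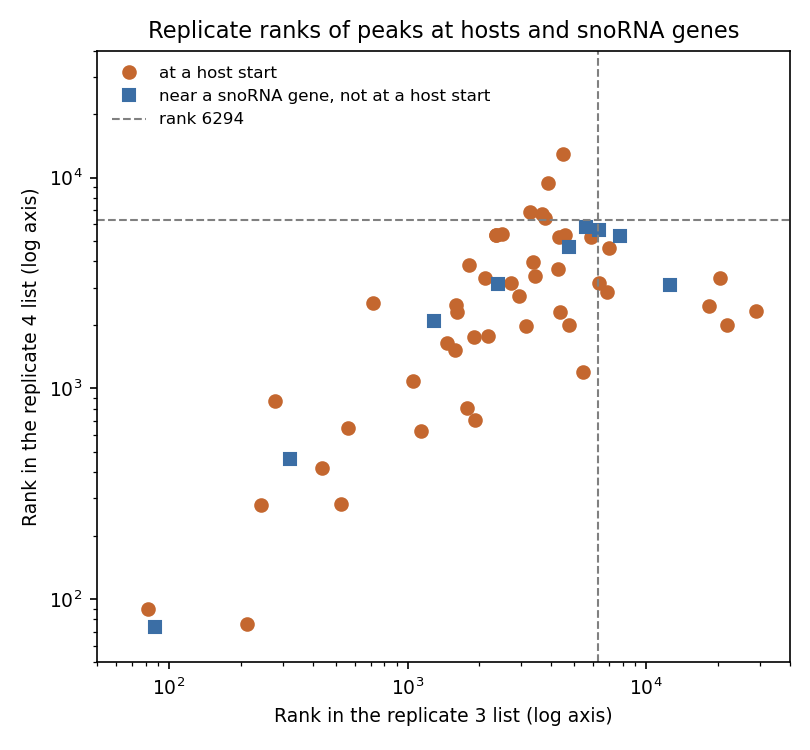
Rank of each peak in the replicate 3 list (horizontal) and the replicate 4 list (vertical), both on log axes, for peaks at a host start (circles) and peaks near a snoRNA gene that are not at a host start (squares); dashed lines mark rank 6294, and the RpL22 peak, with no replicate 4 rank, is not drawn. Of the 48 host start peaks, 35 lie below and left of both lines, and the exceptions at the far right include kra.

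By name class, 7 of 91 C/D guides had a summit (7.69%), 4 of 114 H/ACA guides (3.51%), 1 of 18 members with a U or snR name (5.56%), 1 of 16 scaRNAs (6.25%) and 9 of 30 members with another name (30%). Members with a U or snR name include C/D snoRNAs such as U14 and U3, so the C/D class by name leaves some C/D members out. The 9 include the 4 lola members with 1 peak and the pair at 1092.7. The replicates did not keep the order of the small classes: members with a U or snR name had 4 summits in replicate 3 and 1 in replicate 4. The H/ACA guides nevertheless had the largest share of intronic members with a host start summit among the 5 classes, at 52.4% of 105, with 30.6% of 85 C/D guides. That share rests on few host peaks, since 39 of the 55 such members lie in 4 hosts (Arpc2, kra, Hrb98DE and RpS7), and 3 of these 4 (all but Hrb98DE) had no start peak strong in both replicates. In all other hosts, 16 of 66 intronic H/ACA guides had a host start summit (24.2%). By arm, 14 of the 22 members with a summit were among the 96 members on 2R (14.6%), and none was among the 48 on 3R. Replicate 3 gave 16 on 2R and 0 on 3R, and replicate 4 gave 14 and 2. Several of the 14 share a peak, among them the 4 lola members. Shares of all genes by arm are not given here, so these counts show no trait of snoRNA genes.

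Many members are copies of each other, which bears on whether reads could be placed there. The 10 Psi18S-525 copies in Arpc2 had a median pairwise identity of 75.9%, and the 4 Psi28S-3405 copies in Hrb98DE 89.3%. Among all 269, 166 had a window of 500 bp to each side in which every 32-base word occurs once on the arms, and 16 had under 90% such words. Of these 16, 1 had a summit (hts-a, at 89.7%). At the outermost start of each host, all windows stood at 93.2% or above, and internal starts were not checked. The part of repeated sequence in the low count at snoRNA genes was not tested, since the lists hold no reads.

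The proteins that work with snoRNAs were read from a list of 15 genes, all of which were found in the annotation. A summit lay at a start of 5 (33.3%), against 18.6% of protein-coding genes that are not hosts. Replicate 3 gave the same 5. Replicate 4 gave 4, which were NHP2, Gar1, pont and nop5, without Fib and rept. The core H/ACA protein gene NHP2 was strongest at 318.1 pooled, with ranks 1311 and 1551 in replicates 3 and 4. Its partner Gar1 stood at 208.9, with ranks 3960 and 1990. pont and rept, the paired ATPases that help assemble snoRNPs, stood at 230.6 and 216.9. pont had ranks 2062 and 2831, whereas rept had rank 2263 in replicate 3 and no overlapping peak in replicate 4. Fib, the methyltransferase of C/D snoRNPs and also a host, stood at 155.6 with ranks 3755 and 6420, and its nearest gene start is that of CG3085.

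The 10 without a start summit in the thresholded list include the other C/D core proteins Nop56, nop5 and hoip. They include the other H/ACA core proteins Nop60B and Nop10 too. Of these, nop5 had a start peak of rank 3424 in replicate 4 only. They also include Nopp140, a nucleolar chaperone, and spag, an assembly factor. coil and WDR79 of the Cajal body, and ldbr, which debranches intron lariats, were without one as well. Each of the 2 kinds of snoRNP thus had core protein genes with a start summit and core protein genes without. Of the list, 3 are themselves hosts (Fib, nop5 and Nop60B).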

How the data were processed

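Peak lists of 2 ChIP-seq replicates of mod(mdg4)-GFP larvae were analysed on dm6. Per the file headers and notes deposited with them, the lists hold peaks called on each replicate and on pooled reads against a control library, and a list that passed an optimal IDR threshold. The signal of each peak is the authors' deposited enrichment over control, on the scale of its own list, and signals were compared only within a list. The deposited summit offset placed each summit, counted from 1. Lists on dm3 were not used. The sources used here name neither the peak caller nor the IDR threshold, and do not say how reads with more than 1 match were treated.

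Genes came from Ensembl release 115. Introns of these transcripts began with GT and ended with AG in 98.9% of 58570 cases on the RefSeq sequence of the same assembly. An intronic member lies wholly in an intron of at least 1 transcript of a host on its strand. Distances run from member or gene starts to summits. In each replicate the strongest 6294 of its list were used, to equal the thresholded list, and pooled peaks were matched to replicate peaks by an overlap of 1 bp or more. Summit counting was checked on simulated positions. The median of pairwise identities came from global alignments in Biopython 1.88. Python 3.11.15 with pandas 2.3.3, NumPy 2.4.6 and SciPy 1.17.1 was used, and matplotlib 3.10.9 for figures.

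Named genes are all members and hosts with a summit, the 10 hosts with most members (11 with ties) and 15 snoRNP genes. Some hosts are counted but not reported by name here. The U3 genes, the members just outside the window and the hosts peaked only in the replicates were chosen after their values were seen. Members, lists and comparisons were chosen with earlier results of these data known. With 1 group, no test was made. The 11 alternatives are given below.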

Additional observations from a re-analysis of the deposited data

How the results depend on the processing

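The counts and shares below were recomputed under 11 other choices, which gave 66 values. Of these, 22 moved by more than 1.5 times, or, for the difference in shares, by more than 1 SD between replicates. The difference in shares never changed sign, and the counts have no direction to change. Some values could not move by construction, such as the host count when members were merged. The host count of 39 stayed between 26 and 46. The counts at snoRNA genes depended on the window and the threshold. Shares of other genes are given only at 500 bp, for the thresholded list and each replicate list. Whether the contrasts of hosts and snoRNA genes with other genes hold at the other settings was not tested. With a window of 250 bp, 12 members had a summit, 10 intronic and 2 outside, the difference was -3.58 points, and 5 members far from host starts had one. With 1000 bp, these were 49 members, 42 intronic, -9.64 points and 16 far members. With the strongest 3147 thresholded peaks, 11 members, 7 intronic and 2 far members had a summit. With 12588 pooled peaks, 2 times as many, these were 45 members, 34 intronic, 11 outside, -28.3 points and 19 far members. With peaks strong in both replicates the difference was -9.62 points, with hosts taken on either strand -21.5, and with members merged within 500 bp -8.52, with 3 far members. Without replicate 3 or 4 in turn, the values ran from -13.6 to -11.8 points for the difference, 23 to 29 members, 18 to 23 intronic, 5 to 6 outside, 39 to 46 hosts and 9 to 10 far members. No paired analysis was possible because the replicates form 1 group. Depth is unknown, so a snoRNA gene without a summit is not shown to be unbound.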

Other observations

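Both replicate lists held peaks at a few hosts and members for which the pooled list used here held none within 500 bp. At the starts of RpL28 the best peak had rank 2392 in replicate 3 and rank 5576 in replicate 4. The H/ACA guide snoRNA:Psi28S-2622, which overlaps the gene stet on the opposite strand, had peaks of rank 5008 and 3318 near its start. With the replicate lists alone, 32 hosts were among the strongest 6294 peaks of both, of which 30 are among the 39. Over the arms, 4595 of the 6274 strongest replicate 3 peaks overlapped one of the strongest of replicate 4, and 84 of these (1.83%) overlapped no pooled peak. The strongest of the 84 had rank 42 in replicate 3. Why the pooled list used here holds no peak at these places is not known, so the absence of a pooled or thresholded peak at a gene is not evidence that it was unbound.

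Some hosts had a start peak in 1 replicate list only. RpL3 had rank 493 and RpL14 rank 1841 in replicate 4, and CG12316 had rank 1000 in replicate 3. These 3 had no start peak in the other replicate or in the pooled list.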
